A study of Mus musculus with 24 samples.

Results

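Bone morphogenetic protein (BMP) signalling was described in primary mouse brain microvascular endothelial cells through 10 genes picked by symbol: the ligand genes Bmp2, Bmp4 and Bmp6, the receptor genes Acvrl1 and Eng, the inhibitory Smad genes Smad6 and Smad7, and the target genes Id1, Id2 and Id3. All 10 were among the 18091 genes of the wild-type table, and all 10 were among the 12249 genes that reached a mean of at least 10 normalized counts and were tested. The cells came from cortex and midbrain microvessels of C57B/6J mice, with 12 mice pooled per replicate, and were kept in puromycin for 48 h to remove other cell types. They were grown on transwell inserts, porous supports whose 2 chambers let a compound reach either the apical side, which faces the blood, or the basal side. The 5 wild-type groups of 4 libraries each lasted 24 h. They were vehicle, apical or basal CYM50260 (500 nM), which activates the sphingosine-1-phosphate receptor S1P4, and apical or basal sphingosine-1-phosphate (S1P, a lipid mediator, 50 nM). A group of 4 vehicle-treated libraries is labelled as S1P4 KO/KO, a global knockout. In the series' own terms basal S1P opens the barrier and the other 3 treatments tighten it. No source used here ties the libraries to separate pools of mice, so the p-values below measure the spread between these libraries, which may be technical in part.

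BMP ligands are secreted proteins that bind pairs of type I and type II receptor kinases. In endothelium the type I receptor ALK1, made from Acvrl1, and its co-receptor endoglin, made from Eng, carry signals of circulating and local BMPs to the transcription factors Smad1, Smad5 and Smad4. The Id genes are among the most direct targets of these Smads. Their products are helix-loop-helix proteins without a DNA-binding part, which hold E proteins and related factors off DNA. Smad6 and Smad7 are induced by the same signals and block the receptors, and loss of ALK1 or endoglin causes vascular malformations.

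The wild-type libraries held 4.49 to 4.72 M normalized counts each (gene counts that the authors divided by 1 factor per library), from an estimated 3.93 to 5.54 M reads on genes. All 15 endothelial markers were present in every group, with summed levels of 23422 to 28480 normalized counts per library. Markers of microglia and leukocytes summed to 2 to 30 and those of oligodendrocytes to 2 to 17, while 10 of 11 listed pericyte markers were in the table and summed to 276 to 2856. Astrocyte markers (4 of 5 in the table) summed to 525 to 879 and neuron markers (3 of 5) to 158 to 477. All listed markers in the table were above 0 in at least 1 library of every group. Xist, the RNA of the inactive X chromosome of female cells, followed the replicate number in most libraries: it was 0 to 1 in those numbered 1. It did not in 4 libraries. S1P apical replicate 3 held 525 and S1P basal replicate 2 held 552, against 1063 to 2555 in the other libraries numbered 2 or 3. S1P apical replicate 4 held 1417, against 173 to 244 in the other libraries numbered 4, and agonist apical replicate 2 held 1382, within the range of those numbered 3. S1P basal replicate 2 was also most like S1P apical replicate 3 over all other tested genes. Its r was 0.69, from log2 values less each gene's mean over the 20 wild-type libraries. Differences between groups that rest on these libraries are therefore given with and without them. Correlations and shares of variance are given over all 20 wild-type libraries only. S1P apical replicate 4 was compared with other libraries after each gene's group means were subtracted. It had correlations of 0.633 to 0.705 with the libraries numbered 3 of the other groups and of 0.171 to 0.396 with those numbered 4. Its pericyte markers summed to 949, against 276 to 406 in the other libraries numbered 4, S1P basal replicate 4 (318) among them, so the apical group held no library as low.

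At rest, the receptors were the most abundant of the 10 genes for their length. Eng, on chromosome 2 (32646595 to 32682669 on mm10), had 511 ± 29.9 normalized counts per exonic kb in vehicle (SD, n = 4). Acvrl1, on chromosome 15 (101128522 to 101145336), had 452 ± 39.1 per kb. Id1 followed with 290 ± 20.7 per kb, then Id3 with 230 ± 9.75 and Bmp6 with 228 ± 12.7 per kb, which did not differ beyond their spread. Bmp4 had 143 ± 11.6 per kb. The lowest 4 were Smad6 with 97.5 ± 6.86, Bmp2 with 85.7 ± 20.9, Id2 with 75.5 ± 17.8 and Smad7 with 60.7 ± 14.6 per kb, and each of these neighbours in the order lay within the larger of the pair's SDs. The wild-type table topped out at 701 per kb for any tested gene, so the receptors stood near its upper end. The separate table labelled knockout reached 47867 per kb, and there Eng had 6928, Id1 1746, Id3 1696 and Bmp6 634 per kb. Genotype and table cannot be told apart there, so the spacing given above holds for the wild-type table only.

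The first question was how the 2 sides differ when the same 50 nM of S1P is given basally or apically. None of the 10 genes passed the test in the fit of group means, without a replicate block (0 of 10 at an adjusted p under 0.05; 0.0245% of all tested genes, 3 genes, passed). At an unadjusted p under 0.05, 5 of 10 stood out, against 4.01% of all tested genes: Id2, Bmp6, Smad7 and Smad6 had lower values with basal S1P and Bmp2 had higher ones. The median difference of the 10 genes was -0.26 on the log2 scale, against 0.00 over all tested genes, and 8 of 10 had a lower mean, against 49.8% of all. Members were picked with earlier results of these data known, so these counts describe the list and do not test it. In bulk RNA, fewer cells of a type and less RNA per cell cannot be told apart.

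**Figure D1:**
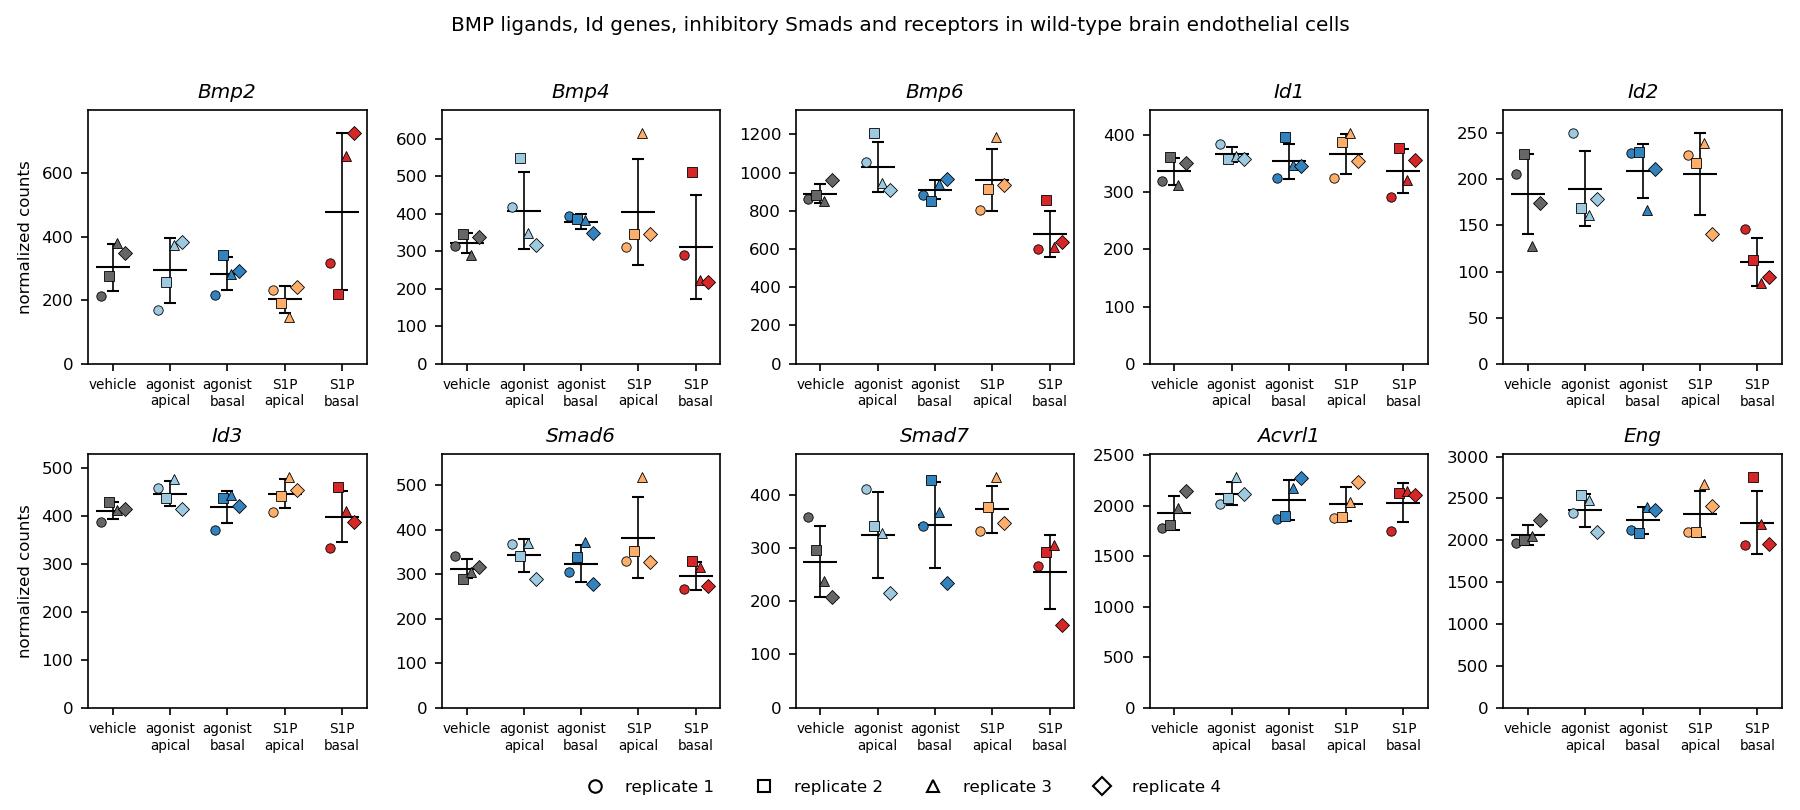
Normalized counts (vertical axes, each from 0) of the 10 genes in the 5 wild-type groups. Symbols are single libraries by replicate number, horizontal bars the group mean and error bars the SD of 4 libraries. Id2 with basal S1P ran from 88 to 146 and Bmp6 from 602 to 857, with low values beside the other groups, while Bmp2 with basal S1P spread from 221 to 726.

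Among the ligands, Bmp2 and Bmp6 differed in opposite directions. Bmp6, an endothelial BMP best known for telling the liver about iron stores, lies on chromosome 13 (38345107 to 38500302). It had 602, 857, 612 and 637 normalized counts in the libraries with basal S1P (replicates 1 to 4) and 805, 916, 1188 and 933 with apical S1P. Only the basal replicate 2 reached into the apical range, above apical replicate 1, and the other 3 basal libraries were below all apical ones. The limma estimate was -0.51 ± 0.12 on the log2 scale (SE), a ratio of 0.705 with a 95% confidence interval of 0.593 to 0.837, with an adjusted p of 0.309. It ranked 17 of 12249 genes by p. Without basal replicate 2 the estimate was -0.62 (adjusted p = 0.0592), and without both basal replicate 2 and apical replicate 3 it was -0.52 (adjusted p = 0.101).

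Bmp2, an inducer of bone and cartilage that is also made by activated endothelium, lies on chromosome 2 (133552159 to 133562885). It had 316, 221, 655 and 726 normalized counts with basal S1P and 232, 192, 147 and 241 with apical S1P. Basal replicates 3 and 4 were far above the other 2, and basal replicate 2 fell inside the apical range. The estimate was 1.10 ± 0.33, a 2.14-fold higher level (95% confidence interval 1.32 to 3.45) with an adjusted p of 0.736. Leaving out one library at a time moved the estimate between 0.84, without basal replicate 4, and 1.41, without basal replicate 2.

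Bmp4, a ligand close to Bmp2 in sequence, lies on chromosome 14 (46383520 to 46390669). It had 289, 512, 223 and 218 normalized counts with basal S1P and 310, 345, 614 and 347 with apical S1P. In 3 of 4 basal libraries it was below every apical library, while basal replicate 2 and apical replicate 3 were the highest of their groups. The estimate was -0.41 ± 0.24 (adjusted p = 0.999), and -0.47 ± 0.16 without those 2 libraries (adjusted p = 0.928). Bmp4 had -0.69 without basal replicate 2 alone and -0.19 without apical replicate 3 alone.

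Of the Id genes, Id2 had the largest difference and Id1 and Id3 had small ones. Id2 lies on chromosome 12 (25093799 to 25097140). It had 146, 113, 88 and 94 normalized counts with basal S1P and 226, 218, 239 and 141 with apical S1P. The lowest apical library, replicate 4, overlapped the highest basal one, replicate 1, and all other apical libraries were above all basal ones. The estimate was -0.89 ± 0.21, a ratio of 0.538 (95% confidence interval 0.399 to 0.725) with an adjusted p of 0.309, rank 13 by p. Without the 2 libraries that resembled each other it was -0.84 ± 0.24 (adjusted p = 0.71), and without all 4 libraries whose Xist did not follow their number it was -1.05 ± 0.26 (adjusted p = 0.468).

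Id1, on chromosome 2 (152736251 to 152737410), had 292, 378, 321 and 357 normalized counts with basal S1P and 324, 388, 403 and 354 with apical S1P. Id3, on chromosome 4 (136143497 to 136145755), had 334, 462, 411 and 389 against 409, 443, 481 and 455. The groups overlapped for both genes. The estimates were -0.13 for Id1, with an interval of -0.31 to 0.06, and -0.17 for Id3, with an interval of -0.35 to 0.01. On the scale of the wild-type table, both intervals leave out a change as large as the -0.89 estimated for Id2. That table reached 701 per kb at most, against 47867 in the separate table labelled knockout. Id1 and Id3 were among its abundant genes, at percentiles 97.3 and 94.9 by vehicle level per kb. Whether the wild-type values understate changes of abundant genes was not tested. Whether Id2 differed from Id1 and Id3 in its response was not tested.

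The Id2 promoter is shown because Id2 had the largest estimated difference among the target genes, and the Smad6 promoter because it is the other matched promoter of a Smad target with an unadjusted p under 0.05. Both are from RefSeq (GRCm38.p6), and only the part before the first annotated exonic base of the window is printed. The RefSeq start of Id2 lies 1048 bases inside the bounds of the gene given above. The printed Id2 stretch is therefore inside those bounds and not upstream of them, unlike that of Smad6. Capitals mark GGCGCC, a core of BMP-responsive Smad elements.
Id2, chr12:25096254-25096342, minus strand: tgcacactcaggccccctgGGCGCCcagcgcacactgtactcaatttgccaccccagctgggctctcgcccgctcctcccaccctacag
Smad6, chr9:64022060-64022309, minus strand: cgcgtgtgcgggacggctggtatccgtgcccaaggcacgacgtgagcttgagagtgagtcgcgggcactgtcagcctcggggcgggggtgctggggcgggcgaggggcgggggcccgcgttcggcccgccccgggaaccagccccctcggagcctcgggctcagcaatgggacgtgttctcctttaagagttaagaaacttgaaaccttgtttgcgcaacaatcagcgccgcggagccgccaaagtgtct
Promoter windows of 300 bases were found for 6 of 10 genes (Bmp4, Bmp6, Id2, Id3, Smad6 and Eng). On both strands, GGCGCC was found in 1 of the 6, Id2, with its first base 231 bases before the RefSeq start. It occurred in 21.3% of the promoters of tested genes and in 11.9% of all 32851 promoters. GGCGCC followed after 5 bases by GTCT was in 0 of the 6 windows and in 0.0903% of promoters of tested genes, and CAGACA, a general Smad-binding word, was in 0 of the 6 and in 15.6%. These are matches of letters only, and a match is neither a bound site nor a cause of a difference.

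The inhibitory Smads had lower values with basal S1P. Smad7, on chromosome 18 (75367529 to 75395935), had 266, 292, 306 and 155 normalized counts with basal S1P and 332, 377, 432 and 347 with apical S1P. It was the only one of the 10 genes with every basal library below every apical one, which held in this direction for 0.645% of all tested genes. The estimate was -0.58 ± 0.23 (adjusted p = 0.999). The library numbered 4 had the lowest Smad7 level of its group in vehicle (207), agonist apical (215), agonist basal (234) and S1P basal (155), but not in S1P apical, where it held 347. S1P apical replicate 4 was one of the libraries whose Xist did not follow its number. The estimate was -0.36 without S1P basal replicate 4 and -0.60 ± 0.32 without the 4 libraries whose Xist did not follow.

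Smad6, the Smad inhibitor most specific to BMP signals, lies on chromosome 9 (63953076 to 64022059). It had 266, 330, 316 and 274 normalized counts with basal S1P and 330, 351, 517 and 328 with apical S1P. Apical replicate 3 was far above all other libraries, and basal replicate 2 overlapped the lower part of the apical range. The estimate was -0.34 ± 0.13 (adjusted p = 0.999), and -0.19 without apical replicate 3.

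The receptors did not differ between the sides beyond the spread. Acvrl1 had 1745, 2123, 2147 and 2102 normalized counts with basal S1P and 1876, 1892, 2040 and 2238 with apical S1P, an estimate of 0.01 with an interval of -0.17 to 0.19. Its sign turned under quantile normalization, to -0.03, and its estimates with 1 library left out reached -0.02. Eng had 1948, 2751, 2198 and 1952 against 2096, 2103, 2670 and 2409, an estimate of -0.08 with an interval of -0.29 to 0.14. Their groups overlapped, and as ratios the intervals were 0.891 to 1.14 for Acvrl1 and 0.818 to 1.1 for Eng. Both receptors stood near the upper end of the wild-type table, and whether changes are understated there was not tested.

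**Figure D2:**
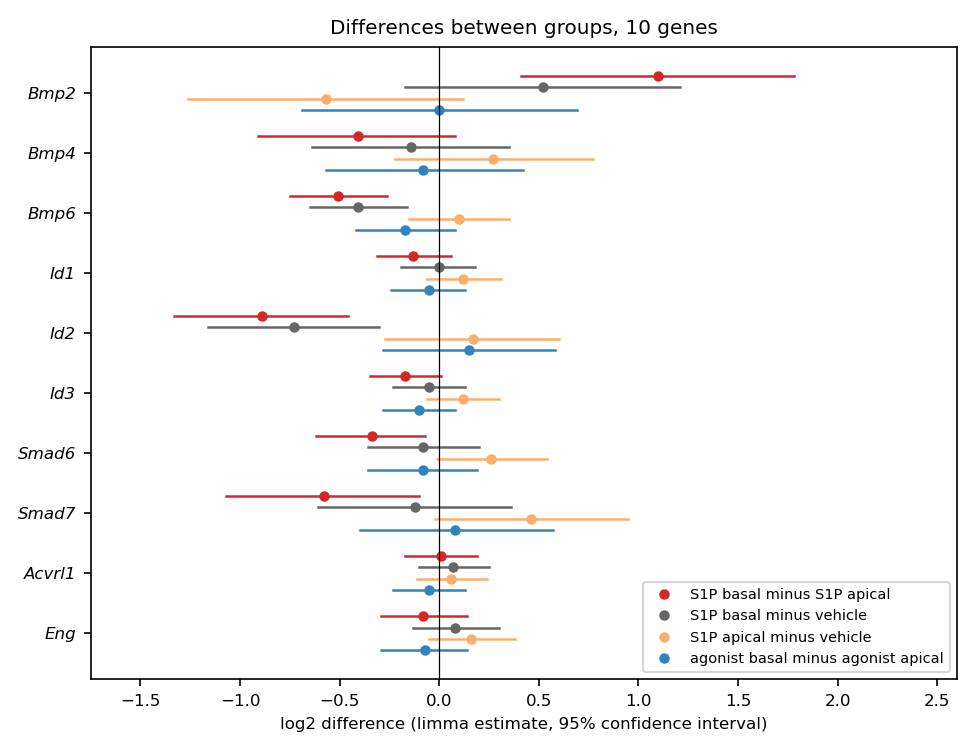
Estimated log2 differences of the 10 genes (points) with 95% confidence intervals (lines) for 4 comparisons, from limma over 20 wild-type libraries. Id2 and Bmp6 lie below 0 in both comparisons of basal S1P, at -0.89 and -0.51 against apical S1P and at -0.73 and -0.41 against vehicle, and the intervals for the 2 sides of the agonist all include 0.

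Basal S1P was next compared with vehicle. Id2 had 206, 228, 128 and 174 normalized counts in vehicle. With basal S1P, 3 of 4 libraries were below all of these, the exception being replicate 1 (146). Its estimate was -0.73 ± 0.21 (adjusted p = 0.717). Bmp6 had 863, 885, 849 and 960 in vehicle, and again 3 of 4 basal S1P libraries were below all of them, the exception being replicate 2. Its estimate was -0.41 ± 0.12 (adjusted p = 0.731), and -0.53 without S1P basal replicate 2, where it did not pass (adjusted p = 0.226). With S1P apical replicate 3 left out as well, which enters only the shared estimate of the spread here, Bmp6 passed with the same estimate (adjusted p = 0.0485), and so it did without the 4 libraries whose Xist did not follow their number (adjusted p = 0.0161). With all libraries and no replicate block, 0 of 10 genes passed, against 0.0245% of all tested genes, and 2 of 10 had an unadjusted p under 0.05, against 5.22%. Bmp2, with 214, 276, 379 and 349 in vehicle, had an estimate of 0.52 ± 0.33, and the other 7 genes had estimates from -0.14 for Bmp4 to 0.08 for Eng. Without S1P basal replicate 4 the estimates of Bmp2 and Bmp4 were 0.27 and 0.00, and without S1P basal replicate 2 they were 0.84 and -0.41. Without S1P basal replicate 3 that of Bmp2 was 0.32.

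Set against the mean of the 3 barrier-tightening treatments, basal S1P gave the smallest p-values for the same pair. Bmp6 ranged from 805 to 1205 normalized counts in those 12 libraries, and its estimate was -0.52 ± 0.10 (adjusted p = 0.0579, rank 8). Id2 ranged from 141 to 250, and its estimate was -0.87 ± 0.17 (adjusted p = 0.0635, rank 11). Neither passed in the fit of group means over all libraries, without a replicate block, while 6 genes (0.049%) did, and 5 of 10 had an unadjusted p under 0.05, against 5.63%. Bmp6 passed without S1P basal replicate 2 (-0.64, adjusted p = 0.00559), and also without the 4 libraries whose Xist did not follow their number (-0.56, adjusted p = 0.00286). Id2 passed without S1P apical replicate 4 (-0.93, adjusted p = 0.0287) but not without those 4 libraries (-0.95, adjusted p = 0.126). Bmp2 had an estimate of 0.77 ± 0.27 (adjusted p = 0.632), Smad7 of -0.46 ± 0.19 (adjusted p = 0.804) and Bmp4 of -0.41 ± 0.19 (adjusted p = 0.871). Without S1P basal replicate 4 these were 0.51 for Bmp2, -0.24 for Smad7 and -0.28 for Bmp4. Bmp2 reached 1.09 and Bmp4 -0.68 without S1P basal replicate 2. This comparison shares its basal S1P libraries with both comparisons above, and shares the apical S1P libraries with the first.

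Apical S1P and the S1P4 agonist gave no gene that passed the test against vehicle, among these 10 or among all 12249 (0%). At an unadjusted p under 0.05, 0 of 10 genes stood out in each of the 3 comparisons, against 0.996% of all tested genes for apical S1P, 1.09% for apical agonist and 0.31% for basal agonist. With apical S1P the estimates of Smad7 (0.46 ± 0.23), Smad6 (0.26 ± 0.13) and Bmp2 (-0.57 ± 0.33) were the farthest from 0 relative to their errors (adjusted p = 1 for each). With apical agonist, Bmp4 had 418, 549, 349 and 317 normalized counts against 314, 347, 289 and 338 in vehicle, and Bmp6 had 1053, 1205, 946 and 911. The estimates were 0.31 ± 0.24 for Bmp4 and 0.20 ± 0.12 for Bmp6. Eng had 2323, 2539, 2476 and 2096 with apical agonist and 1973, 2001, 2053 and 2242 in vehicle, so 3 of 4 were above every vehicle library, and its estimate was 0.19 ± 0.10 (adjusted p = 1).

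With basal agonist, Bmp4 had 395, 387, 382 and 349 normalized counts, each above every vehicle library. Such a separation upward occurred for 0.278% of all tested genes. The estimate was 0.23 ± 0.24 with an adjusted p of 1. Id2 had 229, 230, 167 and 211 with basal agonist and 250, 169, 161 and 179 with apical agonist, so it was not low when the agonist was given basally.

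Between the 2 sides of the agonist, the 10 genes had estimates from -0.17 for Bmp6 to 0.15 for Id2, and 0 of 10 reached an unadjusted p under 0.05, against 0.498% of all tested genes. The doses of S1P and of the agonist differed, so the sides were compared within each compound and those differences were set against each other. This interaction was -1.05 ± 0.29 for Id2 (rank 5 by p, with an adjusted p of 1) and 1.10 ± 0.47 for Bmp2 (adjusted p = 1). For Bmp6 it was -0.34, with an interval of -0.69 to 0.01. No gene of the table passed this test (0%), and 1.49% had an unadjusted p under 0.05. Over all 5 groups, limma's F test ranked Bmp6 9 and Id2 13 by p, with an adjusted p of 1 for both, and 3 genes (0.0245%) passed.

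The 10 genes varied between libraries to different degrees. The SD over the 20 wild-type libraries was 0.58 on the log2 scale for Bmp2 and 0.45 for Id2, but 0.12 for Id1, 0.13 for Id3 and 0.12 for Acvrl1. Treatment group accounted for 64.7% of the variance of Bmp6 and 61.7% of that of Id2, the highest shares of the 10. For Acvrl1 the replicate number accounted for 62.7% and the group for 15.5%, and for Smad7 the number accounted for 45.9% and the group for 31.9%. The remaining 6 genes had group shares of 19.7% to 38.2%. Among them the replicate number outweighed the group for Id1 (34.7% against 21.8%) and Id3 (37.3% against 29.7%). Such shares lie above 0 even where a group or number has no effect. With 5 groups and 4 numbers that base is not the same for both, and the shares themselves were not tested.

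Bmp2 and Bmp4 went opposite ways from library to library. Their log2 values had a correlation of -0.76 over 20 libraries, and of -0.75 after each group's mean was subtracted. The libraries with the highest Bmp2, basal S1P replicates 3 and 4, had the lowest Bmp4, and the library with the lowest Bmp2 (147, S1P apical replicate 3) had the highest Bmp4 (614). Bmp4 and Bmp6 went together, with r = 0.82 and 0.89 after subtraction, and so did Id1 and Id3, with 0.80 and 0.75. Bmp6 and Id2, the pair with the smallest p-values, had r = 0.60, which was 0.07 after subtraction, so it rested on the group means. Id2 had r = 0.17 with Id3, and -0.71 with Acvrl1 after subtraction. The highest Bmp4 values, 614, 549 and 512, were in S1P apical replicate 3, agonist apical replicate 2 and S1P basal replicate 2. Bmp6 was highest in agonist apical replicate 2 (1205) and S1P apical replicate 3 (1188). The Xist level of each of these libraries did not follow its number, and the correlations were not computed without them. These correlations are descriptions: libraries of 1 number may share cells, and each library's scaling factor touches all its genes.

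**Figure D3:**
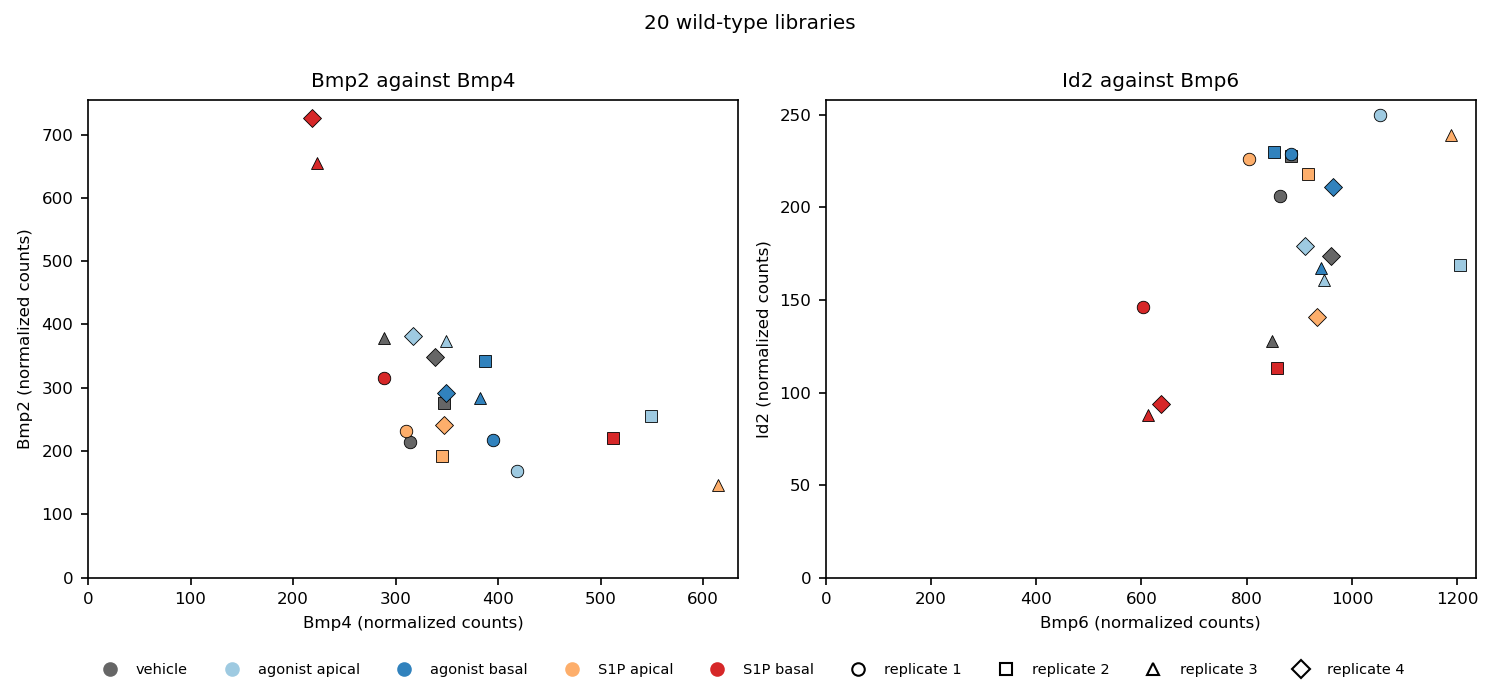
Bmp2 against Bmp4 (left) and Id2 against Bmp6 (right) in 20 wild-type libraries, in normalized counts on linear axes from 0. Colours give the group and shapes the replicate number. Bmp2 is high (655 and 726) where Bmp4 is low (223 and 218). Basal S1P replicates 3 and 4 are below every library of the other groups in both Bmp6 and Id2. Replicate 1 is so in Bmp6 only (602, with Id2 at 146) and replicate 2 in Id2 only (113, with Bmp6 at 857).

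**Figure D4:**
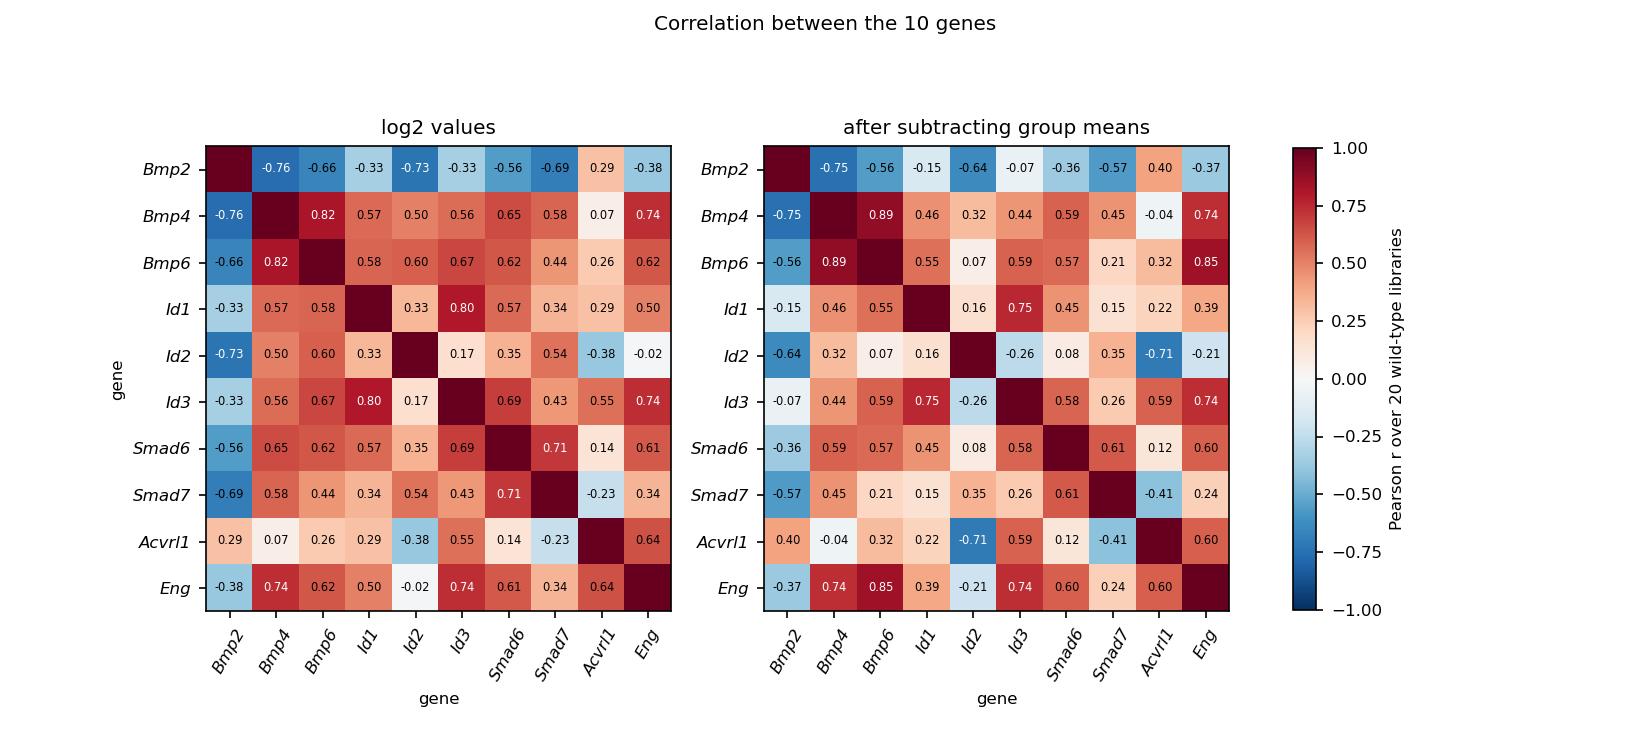
Pearson correlation of log2 values between the 10 genes over 20 wild-type libraries, before (left) and after (right) each group's mean was subtracted. Each cell is 1 pair of genes and prints its r. The pairs Bmp4 with Bmp6 (0.82 and 0.89) and Id1 with Id3 (0.80 and 0.75) are high in both, while Bmp6 with Id2 goes from 0.60 to 0.07.

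Among all tested genes, the one most like Id1 over the 20 libraries was Id3 (r = 0.80), followed by Amotl2 (0.78) and Mpc1 (0.75). For Id2 the closest were Ackr4 (0.91), Syt15 (0.91) and Acer2 (0.89), and after group means were subtracted Vwa8 (0.93), Slc6a6 (0.93) and Tll1 (0.92). For Id3 they were Iscu (0.85), Nenf (0.82) and Bri3 (0.81). Bmp6 was closest to Txndc5 both before (0.93) and after subtraction (0.95), followed before it by Cyp4b1 (0.86) and Kirrel3 (0.85). Smad6 was closest to Kirrel3 (0.76), Kank4 (0.75) and H6pd (0.73). The lists for Id2 before and after subtraction had 0 genes in common.

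Of the wider pathway, 1 gene passed the test between the 2 sides of S1P, where 3 of all tested genes (0.0245%) passed. Atoh8, a helix-loop-helix transcription factor gene downstream of ALK1, had 140, 128, 137 and 109 normalized counts with basal S1P and 279, 279, 337 and 255 with apical S1P. It fell by 1.15 ± 0.13 on the log2 scale (adjusted p = 0.00057), and it was also lower than in vehicle (-0.98 ± 0.13, adjusted p = 0.00325). Without the 4 libraries whose Xist did not follow their number, Atoh8 no longer passed between the sides (-1.12 ± 0.18, adjusted p = 0.094). With only the libraries compared in the fit, Atoh8 did not pass against vehicle (-0.98 ± 0.12, adjusted p = 0.15). It was 1 of 14 tested genes in a list of 15 other endothelial BMP and ALK1 targets. The list was chosen with earlier results of these data known, so this count describes the list and does not test the pathway. The list's next smallest p-values belonged to Lfng, a Notch-modifying enzyme (-0.35 ± 0.16), and Gja5, a gap-junction gene (-0.18 ± 0.09), with an adjusted p of 0.999 each, and its median difference was -0.01. Its most abundant gene per length was Apln, the ligand apelin, with 701 ± 92.8 per kb in vehicle and a difference of 0.07 ± 0.15.

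No other list held a gene that passed. Of 12 genes listed as other BMP ligands, 6 were in the table and 2 were tested. These were Bmp1 (a procollagen protease rather than a ligand, 55.7 ± 5.34 per kb in vehicle, difference -0.04 ± 0.10) and Gdf15 (-0.11 ± 0.88). Gdf15 had 26, 44, 239 and 33 normalized counts with basal S1P and 29, 37, 43 and 266 with apical S1P, a single high library in each group. Bmp5, Bmp7, Bmp8a and Gdf6 had vehicle means of 0.25 to 2.75 normalized counts, too low for the test, so their differences were not tested. Of 10 other receptors and co-receptors 9 were tested, with a median difference of -0.17 and lower means for 8. They were led by Bmpr2, the main type II receptor (-0.17 ± 0.08, adjusted p = 0.999), Acvr1 (-0.12 ± 0.08) and Tgfbr3, which was also the most abundant with 141 ± 20.9 per kb (-0.20 ± 0.15). The BMP-branch Smads had differences of 0.14 ± 0.12 for Smad1, 0.00 ± 0.07 for Smad5 and 0.07 ± 0.07 for Smad4, the most abundant with 180 ± 11.3 per kb.

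Of 16 listed BMP antagonists and modulators 9 were tested, with a median difference of -0.07. Twsg1, which helps chordin hold BMPs, had -0.15 ± 0.07, Mgp, a matrix protein that binds BMPs, had -0.33 ± 0.17, and Fstl3 had -0.48 ± 0.45 (adjusted p = 0.999 each). Crim1 was the most abundant with 489 ± 38.7 per kb (-0.07 ± 0.10). All 6 intracellular feedback genes were tested, among them the ubiquitin ligase gene Smurf1 (-0.10 ± 0.05), the phosphatase gene Ppm1a (0.04 ± 0.07) and Ski, a repressor of Smads and the most abundant with 190 ± 14.3 per kb (0.03 ± 0.06). Of 5 Id partner genes, Tcf3, the gene of the E proteins E12 and E47, had 225 ± 11.8 per kb and a difference of -0.11 ± 0.08, Tcf4 had 0.06 ± 0.07 and Tal1 had -0.04 ± 0.06. In the TGF-beta branch, with 18 tested genes and a median of 0.00, Pmepa1, a feedback inhibitor, had 0.42 ± 0.13 (adjusted p = 0.775), Ltbp2 had -0.73 ± 0.31 and Inhbb had 0.84 ± 0.53 (adjusted p = 0.999 for both). Ccn2 was its most abundant gene with 531 ± 63.9 per kb (0.02 ± 0.13).

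Markers of mural cells had wide ranges in the groups compared. The summed pericyte markers ran from 318 to 2320 normalized counts with basal S1P and from 949 to 2849 with apical S1P. Each of the 8 pericyte markers tested had a mean below that of apical S1P. Their median difference was -0.77, and 0 passed the test. The 6 smooth muscle markers summed to 1145 to 2871 and 1856 to 2765, with a median of -0.55, and the fibroblast markers (5 of 6 in the table) to 104 to 668 and 117 to 840, with a median of -0.77. The astrocyte markers summed to 671 to 879 with basal and 537 to 729 with apical S1P, and the 2 tested ones, Gja1 and Aldh1l1, had higher means (median 0.35, 0 passed). Gja1, a connexin gene, had 690, 610, 767 and 759 against 557, 464, 471 and 656, a difference of 0.40 ± 0.14 (adjusted p = 0.945). The defining astrocyte markers Gfap and Aqp4 were at 0 to 5 in every wild-type library. The neuron markers summed to 182 to 477 and 158 to 342, with a median of 0.36 for the 2 tested. The endothelial markers had a median difference of 0.01. The part of these cells in the Bmp2, Id2, Bmp6, Smad6 and Smad7 differences was not tested.

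The libraries labelled knockout stand in a table of their own, which was normalized separately and rests on partly other gene models, so only values are given and no test was made. S1pr4, the targeted gene, had 250, 261, 349 and 260 normalized counts in them and 128, 130, 189 and 153 in wild-type vehicle. Its ratio between the tables was 1.87, against a median of 1.98 for genes of like level per length (within 1.25-fold), so its RNA was not lower there than the tables' scale gives. No source used here describes the deletion, so these counts do not check the protein. Id2 had 521, 549, 835 and 305 normalized counts there, Bmp2 had 356, 378, 284 and 499 and Bmp6 had 2084, 2095, 2647 and 3057. The ratio of the mean in the libraries labelled knockout to the wild-type vehicle mean was 1.25 for Bmp2, 2.78 for Bmp6, 3 for Id2, 6.02 for Id1, 7.38 for Id3, 9.08 for Acvrl1 and 13.6 for Eng. Over all 12163 shared tested genes with a length this ratio rose with the wild-type level per length. Its median was 1.29 below 10 per kb and 7.36 from 300 per kb, and the highest level per kb of any gene was 47867 in the table labelled knockout, against 701 in the wild-type table.

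Beside genes of like level per length, whose median ratio was 9.14 for Acvrl1 and 12.8 for Eng, both receptors were close to other genes. Bmp4 had 2.79 against a median of 2.76 and Smad6 2.36 against 2.29. Smad7 had 2.32 against 1.95, just above the upper quartile of its like genes (2.31). Id3 had 7.38 against 3.91 and lay above its upper quartile (4.97), and so did Id2, with 3 against 2.07 and an upper quartile of 2.48. Id1, with 6.02 against 4.95, lay between its quartiles (3.97 and 6.93). Bmp2 lay below the lower quartile (1.25 against 1.9), and so did Bmp6 (2.78 against 3.14). Genotype and table cannot be told apart in these ratios.

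**Figure D5:**
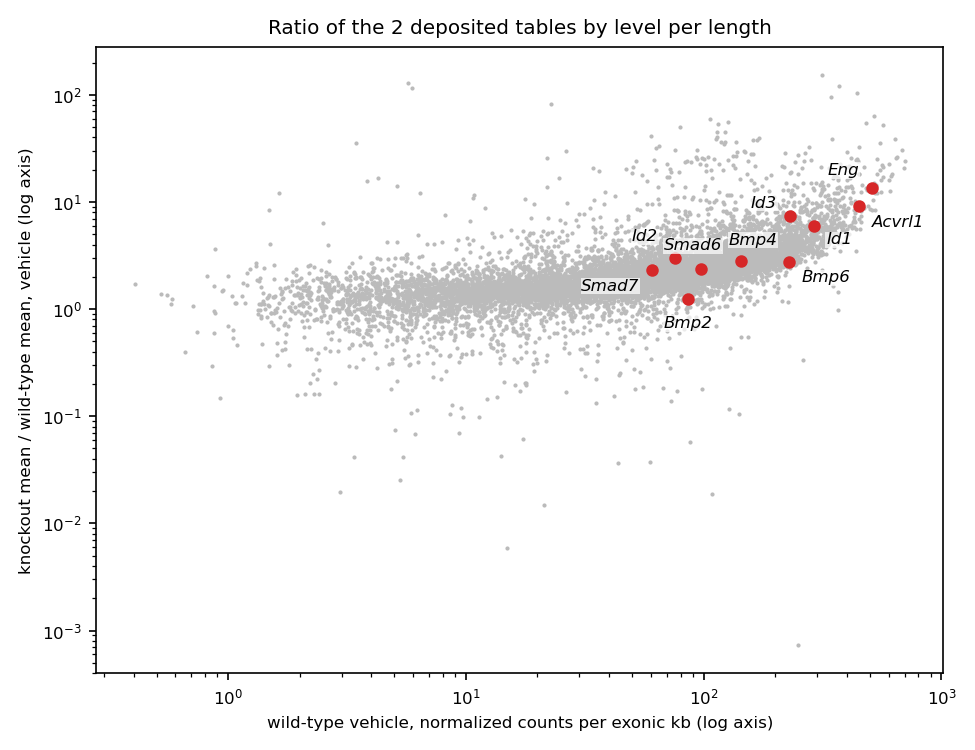
Ratio of the mean normalized count in the table labelled knockout to that in the wild-type table, both vehicle (vertical log axis), against the wild-type level in normalized counts per exonic kb (horizontal log axis). Grey points are tested genes and red points the 10 genes. Over all genes the ratio climbs with the level. Of the 10 genes Eng has the highest ratio (13.6), and Bmp2 (1.25) lies below most genes of like level.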

How the data were processed

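In 2 tables, wild-type and knockout, the authors deposited a signal per gene in whole numbers. Judged from the values, a factor for each library was taken out of its gene counts before rounding, and the result is here called normalized counts. Tools listed in the submitters' processing notes are STAR 2.7.3a, Trimmomatic 0.38, DESeq2 1.26.0, FastQC and Subread with featureCounts 1.6.5, and the build is mm10. No source used here says how strand and duplicate reads were treated. Reads could not be recovered from the rounded values, so a count model was not run and intervals do not separate counting error.

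Genes with a mean of at least 10 over 20 wild-type libraries were fitted as group means of log2(value + 1), with a pseudocount of 1, in limma 3.58.1 (R 4.3.3, trend=TRUE). The Benjamini-Hochberg adjustment covered all 12249 genes, and an adjusted p under 0.05 was called. The log2(value + 1) scale understates changes of low genes. Exonic lengths are the union of GENCODE M21 exons (mm10), and 99.1% of wild-type genes had that annotation's start and end, against 72.6% in the table labelled knockout, whose 36326 rows were reduced to 18297 by dropping identical ones.

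Members and lists were chosen with earlier results of these data known. Named besides the 10 genes were called genes of 8 pathway lists, up to 3 genes per list with the smallest p between the sides of S1P, the most abundant per length, and the 3 genes most like Id1, Id2, Id3, Bmp6 and Smad6. The alternatives tried are given in the closing section.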

Additional observations from a re-analysis of the deposited data

Results flagged for a closer look

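Of the 50 sets of 4 libraries looked at (10 genes in 5 wild-type groups), 4 held a library far from the other 3, by the gap to its nearest neighbour divided by the whole range of the set. Chance alone gives about 1 in 20. S1P apical replicate 3 was the highest for Bmp4 (614 against 310 to 347, a gap of 0.878 of the range) and for Smad6 (517 against 328 to 351, 0.878). S1P basal replicate 2 was the highest for Bmp6 (857 against 602 to 637, 0.863). These are the 2 libraries that resembled each other and whose Xist level did not follow their number. S1P basal replicate 1 was the lowest for Acvrl1 (1745 against 2102 to 2147, 0.888).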

How the results depend on the processing

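Every setting kept the sign of the 5 differences between basal and apical S1P named first: Bmp2 ran from 0.84 to 1.41, Bmp6 from -0.62 to -0.40, Id2 from -1.07 to -0.80, Smad6 from -0.40 to -0.19 and Smad7 from -0.69 to -0.36 over 19 alternatives. The replicate numbers share a pairing only in part: 36 of 40 same-numbered pairs of libraries had correlated deviations (r over 0.1), and S1P apical replicate 2 with S1P basal replicate 2 had -0.345. Each same-numbered pair not over 0.1 held S1P basal replicate 2 or S1P apical replicate 3. The median r was 0.609 for same-numbered pairs and -0.26 for the other 120 pairs, of which 29 were over 0.1. With the replicate number as a block, Id2 (-0.89, adjusted p = 0.0155) and Bmp6 (-0.51, adjusted p = 0.0478) passed between the sides of S1P, Id2 passed against vehicle (-0.73, adjusted p = 0.0447), and both passed against the 3 tightening treatments (Bmp6 adjusted p = 0.00961, Id2 0.00213). With the block, the count of all genes that passed went from 3 to 83 between the sides, from 3 to 47 against vehicle, from 6 to 137 against the tightening treatments, from 0 to 2 for the interaction and from 3 to 18 over the 5 groups. With only the libraries compared in the fit, which leaves fewer degrees of freedom, these counts were 1, 0 and 3 for the first 3. Leaving out 1 library at a time gave 1 to 3 genes between the sides, 2 to 4 against vehicle, 3 to 9 against the tightening treatments, 0 to 1 for the interaction and 2 to 3 over the 5 groups. With the look-alike pair (apical replicate 3, basal replicate 2) left out, 1 gene passed between the sides. Without the 4 libraries whose Xist did not follow their number, an alternative chosen after seeing the data, 0 passed between the sides and 1 over the 5 groups; the cause was not tested. Without S1P apical replicate 1, Bmp6 passed against the tightening treatments (-0.55, adjusted p = 0.0396). The other 4 comparisons gave 0 genes in every setting. The rounded values limit low genes, and 4 libraries a group limit the adjusted p.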
